A study of Mus musculus with 18 samples.

Results

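The immediate early response genes are those that cells transcribe within minutes of a stimulus, before any new protein has to be made. The group described here held 33 mouse genes, chosen by name and matched to the Ensembl identifiers of the count files; all 33 were found among the 53465 genes of each file. They were measured by RNA sequencing in skeletal muscle (SKM), white adipose tissue (WAT) and brown adipose tissue (BAT) of wild-type C57BL/6J mice. One arm received quercetin hydrate, a plant flavonol, by gavage at 0.125 mg/kg, in 100 µL of carrier made of PEG400 at 10% in phosphate-buffered saline. The other arm received that carrier alone, so PEG400 and the gavage were common to both arms. Each of the 6 groups held 3 libraries, numbered 1 to 3 in their titles. The titles carry the same labels in all 3 tissues, without stating that a label marks a single mouse. Not given in the sources used here are the mice's age and sex, how long they were treated, which fat depot and muscle were taken, and how soon after the last gavage. Nothing states that replicates were separate animals, so the spread behind each p-value is that between these libraries and may be technical.

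Immediate early genes are switched on by kinases that act on factors already bound at their promoters. Serum response factor binds the CArG box with partners such as ELK4, and CREB binds the cyclic AMP response element (CRE). Their transcripts are short-lived, and many encode either transcription factors (the FOS, JUN, EGR, NR4A and KLF families) or proteins that end the response, such as phosphatases of the MAP kinases and factors that degrade mRNA. In muscle they are known to rise with contraction and in fat with adrenergic signals.

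The RefSeq promoter table, on build GRCm38.p6, had an entry for 26 of the 33 members; Fosl1, Egr1, Egr3, Klf10, Myc, Ier2 and Nfkbiz had none. The 200 bases before the start site are shown for 5 members that held a complete motif and for Fos, to let a reader see the sites through which such genes are induced, with the CArG box (Zfp36, Egr2), the CRE TGACGTCA (Dusp1, Btg2, Maff) or its short core TGACG (Fos) in capitals, each written 5′ to 3′ on the gene's own strand.
Zfp36: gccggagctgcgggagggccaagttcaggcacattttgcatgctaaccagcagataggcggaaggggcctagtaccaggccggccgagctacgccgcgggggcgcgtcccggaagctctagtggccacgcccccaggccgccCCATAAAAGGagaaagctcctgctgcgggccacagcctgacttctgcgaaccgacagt
Egr2: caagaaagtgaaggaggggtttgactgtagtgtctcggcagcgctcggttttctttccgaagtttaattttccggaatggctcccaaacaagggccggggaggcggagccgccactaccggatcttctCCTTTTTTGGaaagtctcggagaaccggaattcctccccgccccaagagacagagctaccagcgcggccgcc
Dusp1: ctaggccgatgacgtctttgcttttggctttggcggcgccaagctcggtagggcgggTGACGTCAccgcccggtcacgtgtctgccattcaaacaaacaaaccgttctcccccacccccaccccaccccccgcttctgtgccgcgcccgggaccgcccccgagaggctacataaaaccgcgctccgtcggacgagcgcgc
Btg2: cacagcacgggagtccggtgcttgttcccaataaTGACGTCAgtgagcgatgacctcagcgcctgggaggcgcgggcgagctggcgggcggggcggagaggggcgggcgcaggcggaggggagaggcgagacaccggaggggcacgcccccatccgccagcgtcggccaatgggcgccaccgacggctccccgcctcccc
Maff: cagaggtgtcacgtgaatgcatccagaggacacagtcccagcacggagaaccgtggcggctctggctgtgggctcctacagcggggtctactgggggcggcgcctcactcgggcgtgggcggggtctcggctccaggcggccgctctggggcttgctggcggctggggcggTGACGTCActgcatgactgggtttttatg
Fos: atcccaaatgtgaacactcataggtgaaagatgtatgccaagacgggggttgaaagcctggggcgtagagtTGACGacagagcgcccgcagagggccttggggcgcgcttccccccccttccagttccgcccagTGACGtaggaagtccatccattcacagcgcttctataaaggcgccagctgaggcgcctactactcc

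The Zfp36 window is chr7:28379229-28379428 on the minus strand, with the CArG box starting 58 bases before the start site. The Egr2 window, chr10:67537366-67537565 on the plus strand, belongs to 1 of 5 start sites listed for the gene and has its CArG box at 72 bases. The CRE starts 143 bases before the start of Dusp1 (chr17:26508473-26508672, minus strand) and 166 bases before that of Btg2 (chr1:134079156-134079355, minus strand). In Maff it lies at 29 bases, before 1 of 3 listed starts (chr15:79347320-79347519, plus strand). Fos (chr12:85473690-85473889, plus strand) has 2 short cores in this stretch and no full CRE. Both strands were searched from 250 bases before to 50 bases after each listed start, and every CRE also contains a short core. A gene or member was counted when any of its listed starts had a match. A CArG box was found in 3 of the 26 members with an entry (Dusp5, Egr2 and Zfp36), and in 1.81% of all 27025 genes. The full CRE was found in 3 members and in 2.03% of all genes, and the short core in 15 members and 23.0% of all genes. The AP-1 site, TGACTCA or TGAGTCA, was found in Csrnp1 alone among the members and in 5.95% of all genes. These matches describe letters in the window and show no binding.

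The libraries held 8436308 to 12311345 counts. Flow cell H7GKJDSXX held 3 of them (quercetin 3 of muscle, and vehicle 1 and quercetin 2 of white fat), and H7H2WDSXX held the other 15. Levels below are CPM, the read count of a gene scaled to the size of its library, with TMM factors over all 18 libraries. Skeletal muscle and brown adipocyte markers went with the tissue labels. Summed CPM of 12 skeletal muscle markers was 92010 to 167200 in muscle, and of 9 brown adipocyte markers 2369 to 11020 in brown fat. The 10 adipocyte markers summed to 662.9 to 44560 in white fat, a wide range that overlapped the 904.5 to 7366 of muscle. White fat vehicle 2, at 662.9, was below every muscle library. Several libraries stood apart. White fat vehicle 1 had the most adipocyte (44560) and endothelial CPM (5411, against 485.8 to 1645 in the other 5). White fat vehicle 1 and quercetin 2 summed to 1.42 and 3.28 CPM over the 8 B cell markers, with 3 and 2 of these at 0, where the other 4 had 661.0 to 3413. Brown fat quercetin 3 had 38520 CPM of skeletal muscle markers against 6.68 to 7040 in the other 5, and the fewest of brown adipocytes, at 2369 against 8386 to 11020.

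The members were highest, as a group, in the libraries numbered 1 of muscle and white fat, in both arms. Summed over the 33 members, muscle vehicle 1 had 7408 CPM and muscle quercetin 1 had 6744 CPM, where the other 4 muscle libraries had 1865 to 2892. In white fat, vehicle 1 had 7176 CPM and quercetin 1 had 3363 CPM, against 1536 to 2215 in the other 4. Brown fat was more even, with 2129 to 2875 CPM in 5 libraries and 1066 CPM in quercetin 2. Muscle vehicle 1 also had the lowest sums of macrophage markers (146.2 CPM, against 447.0 to 988.6) and fibroblast markers (418.8 CPM, against 1419 to 2587), while muscle quercetin 1 lay within the range of the other libraries for both except for the most fibroblast CPM. The part of tissue makeup in the members' levels was not tested.

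Counted gene by gene, the same libraries stood out. In muscle, 17 members were highest in vehicle 1 and 14 in quercetin 1, which left 2 of 33; among all 13562 genes tested the shares were 32% and 14.9%. Both libraries numbered 1 were the top pair for 22 of 33 members in muscle, against 7.10% of all genes. In white fat, 23 members were highest in vehicle 1 and 7 in quercetin 1, against 25.4% and 19.5% of 14919 genes, and these made the top pair for 18 of 33, against 5.29%. Brown fat differed: 10 members were highest in vehicle 1, 7 in quercetin 1 and 11 in quercetin 3, against 22.3%, 21.7% and 25.8% of all genes, and both libraries numbered 1 made the top pair for 5 of 33, against 6.75% of all genes. Brown fat quercetin 2 was lowest for 21 of 33, against 13.3% of 13274 genes. Across tissues, 16 members were highest in a library numbered 1 in all 3, and Fos, Klf6, Zfp36, Btg2 and Ier3 were highest in vehicle 1 each time.

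**Figure D1:**
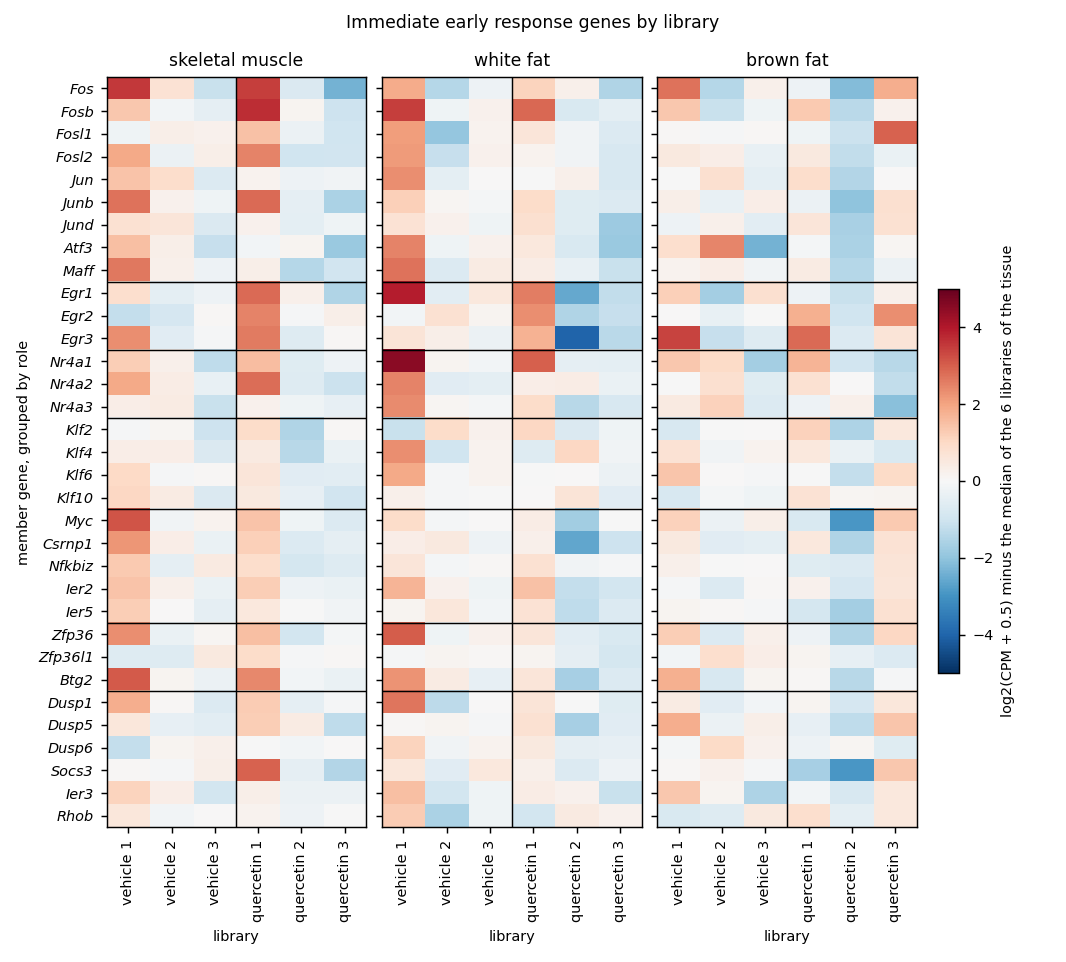
Each cell is a member's log2(CPM + 0.5) in 1 library minus its median over the 6 libraries of that tissue, on a colour scale from -5 to 5; rows are the 33 members grouped by role and columns the libraries. Muscle vehicle 1 and quercetin 1 and white fat vehicle 1 are mostly red, with median deviations of 1.24, 1.23 and 1.72, and brown fat quercetin 2 is mostly blue, at -1.18.

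The spread within a tissue was wider for the members than for most genes. The median ratio of highest to lowest library was 5.73 over the members and 2.40 over all genes tested in muscle, 8.49 and 2.89 in white fat, and 6.35 and 2.46 in brown fat, each with 0.5 added to the CPM.

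Quercetin against vehicle was compared within each tissue, to ask whether low-dose treatment changed these transcripts. In edgeR's quasi-likelihood test, 0 of 33 members passed in muscle, 0 of 33 in white fat and 0 of 32 tested in brown fat, and of all genes tested 0.0% passed in each tissue. DESeq2 and limma's voom with library weights also called 0 members. Of all genes, DESeq2 called 0 of 13562 in muscle, 7 of 14919 in white fat and 2 of 13274 in brown fat, and voom called 0 in each. At an unadjusted p under 0.05, 2 members were found in muscle (2.99% of all genes), 0 in white fat (0.818%) and 1 in brown fat (1.82%). Egr2 failed the filter on low counts in brown fat. The exact permutation test of 3 libraries against 3 cannot give a two-sided p below 0.10, whatever the values.

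Estimates leaned lower with quercetin when all libraries were used. They were lower for 20 of 33 members in muscle (median log2 fold change -0.27, against -0.03 over all genes), 29 of 33 in white fat (-0.63 against -0.01) and 22 of 32 in brown fat (-0.28 against 0.05). Without the vehicle 1 library the lean was gone: 9 of 33 lower in muscle (median 0.39), 15 of 33 in white fat (0.07) and 15 of 33 in brown fat (0.21). Without quercetin 1 instead, 30 of 33 were lower in muscle (-1.03) and 31 of 33 in white fat (-1.38). Leaving out both libraries numbered 1, an alternative chosen after the data were seen, gave 28 of 33 lower in muscle (-0.33), 24 of 33 in white fat (-0.60) and 13 of 31 in brown fat (0.17). In white fat, a fit with flow cell as a covariate gave 26 of 33 lower (-0.44), and the 4 libraries of flow cell H7H2WDSXX alone, an alternative also chosen after the data were seen, gave 13 of 33 (0.16). In muscle, where only quercetin 3 came from the other flow cell, a fit with flow cell as a covariate gave 18 of 33 lower (-0.04). Leaving out quercetin 3 gave 18 of 33 too (-0.05), since flow cell and that library cannot be told apart there. All brown fat libraries shared 1 flow cell. The lean there was gone without quercetin 2, with 14 of 33 lower (0.14), as it was without vehicle 1. No member was called in any of these fits.

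**Figure D2:**
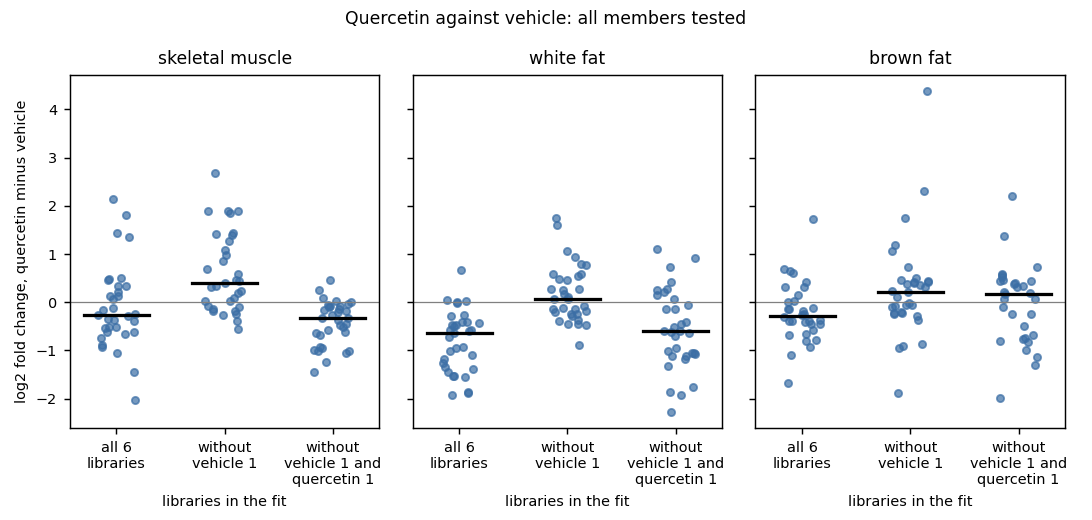
Points are log2 fold changes, quercetin minus vehicle, of the members tested in each tissue, from edgeR fits on all 6 libraries, without vehicle 1, and without both libraries numbered 1; bars are medians. The median crosses 0 in all 3 tissues when vehicle 1 is left out, and only in brown fat does it stay above 0 when quercetin 1 is left out too.

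Members whose quercetin and vehicle libraries did not overlap numbered 0 of 33 with vehicle higher in muscle, white fat and brown fat (3.40%, 1.83% and 3.32% of all genes tested). With quercetin higher they numbered 0 in muscle and white fat (5.85% and 2.61% of all genes) and 1 in brown fat (2.87%), which was Klf10. An interaction contrast asked whether quercetin acted differently in 2 tissues. In edgeR, 0 of 33 members passed for each of the 3 tissue pairs, as did 0.0% of 16388 genes. DESeq2 also called 0 members. Of all genes, it called 7 for white fat minus muscle, 2 for brown fat minus muscle and 13 for brown fat minus white fat. At an unadjusted p under 0.05 the interaction found 0 members for white fat minus muscle, 1 for brown fat minus muscle and 0 for brown fat minus white fat, where the shares of all genes were 1.41%, 1.36% and 1.06%.

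The FOS and JUN proteins pair to form AP-1, which binds its own short DNA site; ATF3 and MAFF are relatives that can pair with them or repress. Fos, the member used most widely as a mark of recent activation, was in muscle at 495, 69.9 and 19.1 CPM in vehicle libraries 1 to 3 and 469.6, 25.2 and 7.66 CPM in quercetin libraries 1 to 3. The libraries numbered 1 were far above the other 4, in both arms alike. In white fat Fos was at 51.6, 4.92 and 11.5 CPM in vehicle libraries 1 to 3 and 31, 16.9 and 4.56 CPM in quercetin libraries 1 to 3, again highest in both libraries numbered 1. In brown fat it was at 98.1, 5.06 and 17.2 CPM in vehicle libraries 1 to 3 and 12, 2.83 and 51.7 CPM in quercetin libraries 1 to 3, highest in vehicle 1 and in quercetin 3, the library with muscle transcripts. The arms overlapped in every tissue.

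Junb, a JUN protein with weak activating power, followed Fos in muscle, at 754, 134 and 99.6 CPM in vehicle libraries 1 to 3 and 820.1, 85.3 and 37.9 CPM in quercetin libraries 1 to 3. In white fat it was at 352, 162 and 143 CPM in vehicle libraries 1 to 3 and 289, 101 and 94.2 CPM in quercetin libraries 1 to 3. Here too both libraries numbered 1 were highest. Fosb, whose short form lasts longer than FOS, was in muscle at 13.2, 4.33 and 3.47 CPM in vehicle libraries 1 to 3 and 68.1, 5.46 and 2.09 CPM in quercetin libraries 1 to 3. Its log2 fold change of 1.82 ± 1.17 (SE), adjusted p = 0.910 in edgeR, rests on quercetin 1, the highest library, and was -0.94 without it.

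Maff, which encodes a small MAF protein without an activation domain, was in muscle at 305, 57.4 and 40.4 CPM in vehicle libraries 1 to 3 and 59.6, 17.9 and 24.2 CPM in quercetin libraries 1 to 3. Vehicle 1 alone was high, and the log2 fold change was -2.04 ± 0.83 (SE), adjusted p = 0.910 in edgeR, and -0.55 without vehicle 1. In white fat Maff was at 164, 15 and 32.1 CPM in vehicle libraries 1 to 3 and 31.5, 18.5 and 10.9 CPM in quercetin libraries 1 to 3, once more with vehicle 1 far above the others. Its log2 fold change there was -1.85 ± 0.96 (SE), adjusted p = 1.0 in edgeR, and -0.24 without vehicle 1.

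Jun, the main JUN partner of FOS, was in muscle at 681, 456 and 155 CPM in vehicle libraries 1 to 3 and 283, 212 and 222 CPM in quercetin libraries 1 to 3. The arms overlapped, with vehicle 1 and 2 above the rest, and the log2 fold change was -0.89 ± 0.51 (SE), adjusted p = 0.910 in edgeR (-0.38 without vehicle 1). In white fat Jun was at 388, 54.2 and 77 CPM in vehicle libraries 1 to 3 and 76.1, 91 and 43.5 CPM in quercetin libraries 1 to 3. Apart from vehicle 1 the white fat libraries lay within 43.5 to 91.0 CPM; the log2 fold change was -1.35 ± 0.84 (SE), adjusted p = 1.0 in edgeR, and 0.10 without vehicle 1.

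Atf3, a stress-induced repressor, was in muscle at 299.9, 129.7 and 46.6 CPM in vehicle libraries 1 to 3 and 96.6, 114 and 28.4 CPM in quercetin libraries 1 to 3. The log2 fold change was -1.04 ± 0.72 (SE), adjusted p = 0.910 in edgeR (-0.17 without vehicle 1). In white fat Atf3 was low apart from vehicle 1, at 46.5, 6.84 and 9.24 CPM in vehicle libraries 1 to 3 and 11.6, 4.45 and 1.81 CPM in quercetin libraries 1 to 3. The log2 fold change was -1.87 ± 1.01 (SE), adjusted p = 1.0 in edgeR, and -0.46 without vehicle 1. In brown fat the highest library was vehicle 2, with Atf3 at 55.7, 172 and 5.67 CPM in vehicle libraries 1 to 3 and 29.1, 10.0 and 33.3 CPM in quercetin libraries 1 to 3. The log2 fold change was -1.68 ± 1.03 (SE), adjusted p = 0.977 in edgeR; with library weights in voom it was 0.22.

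Fosl1, which encodes FRA-1, was low in most libraries and in brown fat was at 5.21, 4.77 and 5.22 CPM in vehicle libraries 1 to 3 and 4.24, 2.12 and 41.6 CPM in quercetin libraries 1 to 3. Only quercetin 3 was high, and the log2 fold change of 1.73 ± 1.05 (SE), adjusted p = 0.977 in edgeR, became -0.72 without it. Fosl2, which encodes FRA-2, ranged over 37.2 to 415 CPM in muscle, 32.5 to 319 CPM in white fat and 58 to 190.1 CPM in brown fat. Jund, the JUN protein least dependent on stimulation, ranged over 12 to 34.8 CPM, 12.5 to 79 CPM and 9.91 to 53.9 CPM in the same order.

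**Figure D3:**
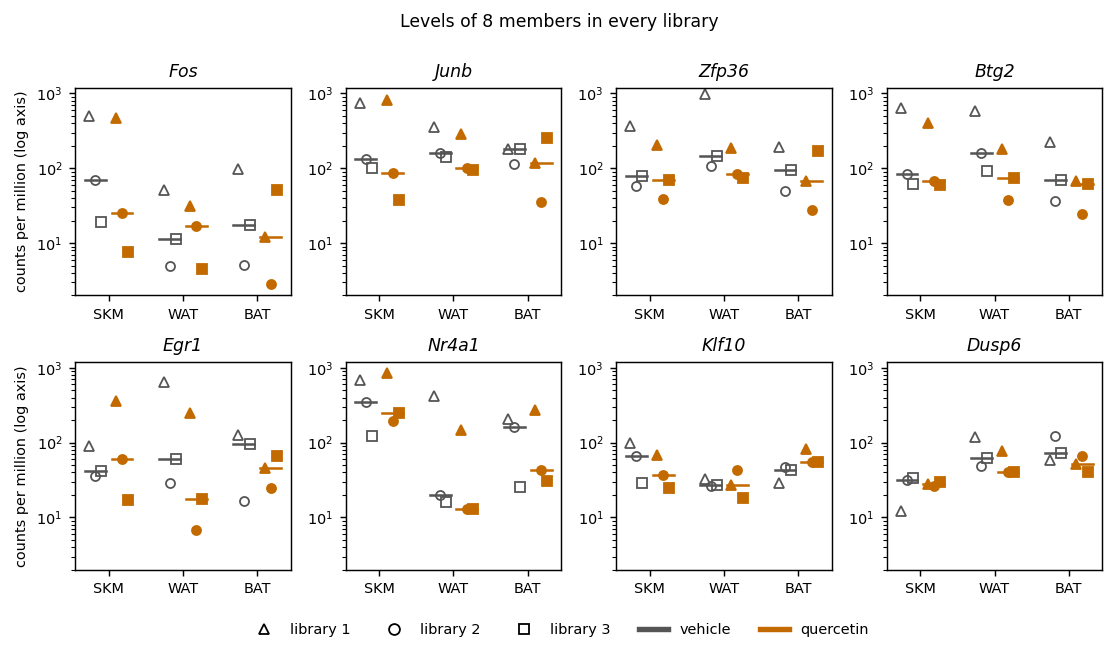
CPM on a log axis of 8 members in every library, by tissue (SKM, WAT, BAT) and arm; open grey symbols are vehicle, filled orange ones quercetin, triangles, circles and squares are libraries 1, 2 and 3, and bars are group medians. The triangles of both arms lie at the top for Fos, Junb, Zfp36 and Btg2 in muscle and white fat, while Klf10 and Dusp6 vary less.

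The EGR proteins are zinc finger activators induced through serum response factor. Egr1 was in muscle at 89.7, 35.2 and 41.5 CPM in vehicle libraries 1 to 3 and 359, 59.9 and 17.1 CPM in quercetin libraries 1 to 3. Quercetin 1 was the highest muscle library, and vehicle 1 the next. In white fat Egr1 was at 651, 29.2 and 61.1 CPM in vehicle libraries 1 to 3 and 249, 6.86 and 17.6 CPM in quercetin libraries 1 to 3, with both libraries numbered 1 above the other 4. In brown fat it was at 126, 16.8 and 97.1 CPM in vehicle libraries 1 to 3 and 45.8, 25.1 and 66 CPM in quercetin libraries 1 to 3, and the arms overlapped.

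Egr2, known from T cells and from myelinating Schwann cells, was in muscle at 0.931, 1.32 and 2.91 CPM in vehicle libraries 1 to 3 and 17.6, 2.60 and 3.48 CPM in quercetin libraries 1 to 3. Its log2 fold change was 2.14 ± 0.83 (SE), adjusted p = 0.910 in edgeR; without both libraries numbered 1 it was 0.47. In white fat Egr2 was at 6.65, 12.6 and 7.97 CPM in vehicle libraries 1 to 3 and 38.9, 2.26 and 2.97 CPM in quercetin libraries 1 to 3, highest in quercetin 1, the library with the most B cell markers (3413 CPM). Egr3, a relative induced with Egr2 in lymphocytes, was in white fat at 24.6, 19.2 and 12.7 CPM in vehicle libraries 1 to 3 and 53.9, 0.511 and 5.87 CPM in quercetin libraries 1 to 3. Its lowest library was quercetin 2, which had almost no B cell markers, but vehicle 1, which also lacked them, was its second highest; the part of these cells was not tested. In brown fat Egr3 was at 11.2, 0 and 0.222 CPM in vehicle libraries 1 to 3 and 7.50, 0.202 and 1.25 CPM in quercetin libraries 1 to 3, with 0 counts in vehicle 2.

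The NR4A genes encode orphan nuclear receptors that muscle induces on exercise and beta-adrenergic signals. Nr4a1 was in muscle at 682, 348 and 122 CPM in vehicle libraries 1 to 3 and 847, 194 and 248 CPM in quercetin libraries 1 to 3. In white fat it was at 425, 19.9 and 16.3 CPM in vehicle libraries 1 to 3 and 146, 13.1 and 12.8 CPM in quercetin libraries 1 to 3. The libraries numbered 1 were the highest in both tissues, and the other 4 white fat libraries lay close together. In brown fat Nr4a1 was at 209, 162 and 25.2 CPM in vehicle libraries 1 to 3 and 270, 42.5 and 31.1 CPM in quercetin libraries 1 to 3. Nr4a3, a relative induced by the same signals, was in muscle at 112, 118 and 41.1 CPM in vehicle libraries 1 to 3 and 104, 76 and 67.4 CPM in quercetin libraries 1 to 3, where vehicle 2 was as high as both libraries numbered 1. In white fat it was at 42.9, 8.51 and 7.45 CPM in vehicle libraries 1 to 3 and 15.5, 2.70 and 4.42 CPM in quercetin libraries 1 to 3 and in brown fat at 30.3, 49.7 and 13.4 CPM in vehicle libraries 1 to 3 and 18.1, 26.6 and 4.81 CPM in quercetin libraries 1 to 3. Nr4a2 ranged over 3.06 to 51.7 CPM in muscle, 2.25 to 21.7 CPM in white fat and 6.37 to 27.7 CPM in brown fat.

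The 4 KLF members encode zinc finger factors with different triggers. Klf6 was in white fat at 344, 87.1 and 104 CPM in vehicle libraries 1 to 3 and 89.1, 93.8 and 74.7 CPM in quercetin libraries 1 to 3. Vehicle 1 alone was high; the log2 fold change was -1.10 ± 0.61 (SE), adjusted p = 1.0 in edgeR, and -0.15 without vehicle 1. Klf10, which TGF-beta induces and which takes part in metabolic control by the clock, was in brown fat at 29, 46.7 and 43.3 CPM in vehicle libraries 1 to 3 and 82.3, 54.2 and 54.6 CPM in quercetin libraries 1 to 3. All 3 quercetin libraries lay above all 3 vehicle libraries; the log2 fold change was 0.68 ± 0.29 (SE), adjusted p = 0.977 in edgeR, and 0.32 without both libraries numbered 1. Klf2, an endothelial and lymphocyte factor that responds to blood flow, was in white fat at 87.1, 357 and 222 CPM in vehicle libraries 1 to 3 and 391, 116 and 163 CPM in quercetin libraries 1 to 3. Its lowest white fat libraries, vehicle 1 and quercetin 2, were those with almost no B cell markers, although vehicle 1 had the most endothelial markers. Klf4 ranged over 37.3 to 132 CPM in muscle, 15.7 to 163 CPM in white fat and 25.2 to 70.8 CPM in brown fat.

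Of the other nuclear members, Myc, the growth regulator, was in muscle at 184, 18.2 and 23 CPM in vehicle libraries 1 to 3 and 55.4, 17.6 and 12.7 CPM in quercetin libraries 1 to 3. Its log2 fold change of -1.45 ± 0.95 (SE), adjusted p = 0.910 in edgeR, rests on vehicle 1 and was 0.45 without it. Nfkbiz, which encodes an atypical IκB protein of the nucleus, ranged over 4.71 to 23.1 CPM in muscle, 31.2 to 60.8 CPM in white fat and 12.4 to 31.7 CPM in brown fat. Ier5, a cofactor of heat shock factor, was in white fat at 170.5, 233 and 142 CPM in vehicle libraries 1 to 3 and 257, 63.5 and 96 CPM in quercetin libraries 1 to 3. Ier2 ranged over 17.7 to 61.8 CPM, 23.7 to 184 CPM and 26.5 to 73.3 CPM in muscle, white fat and brown fat. Csrnp1, a nuclear protein induced by axin, ranged over 19 to 142 CPM, 9.63 to 85.5 CPM and 12.2 to 58.7 CPM. In muscle, Ier5, Ier2 and Csrnp1 were all highest in vehicle 1.

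Another 3 members act on mRNA decay or translation: ZFP36 (tristetraprolin) and ZFP36L1 bind AU-rich elements in transcripts and bring them to degradation, and BTG2 activates the deadenylase complex. Zfp36 was in white fat at 998, 106 and 144 CPM in vehicle libraries 1 to 3 and 188, 84.9 and 73.1 CPM in quercetin libraries 1 to 3. Vehicle 1 was the highest, and the log2 fold change was -1.92 ± 0.997 (SE), adjusted p = 1.0 in edgeR (-0.14 without vehicle 1). In muscle Zfp36 was at 368, 58.4 and 78.3 CPM in vehicle libraries 1 to 3 and 207, 38.9 and 68.8 CPM in quercetin libraries 1 to 3, with both libraries numbered 1 on top. In brown fat it was at 190.2, 49.6 and 95.3 CPM in vehicle libraries 1 to 3 and 68.3, 27.8 and 168 CPM in quercetin libraries 1 to 3.

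Btg2 was in muscle at 638, 83.1 and 60.9 CPM in vehicle libraries 1 to 3 and 403, 67.9 and 60 CPM in quercetin libraries 1 to 3. Both libraries numbered 1 were again well above the rest. In white fat Btg2 was at 577, 162 and 90.7 CPM in vehicle libraries 1 to 3 and 182, 37.6 and 75.3 CPM in quercetin libraries 1 to 3; the log2 fold change was -1.55 ± 0.89 (SE), adjusted p = 1.0 in edgeR, and -0.37 without vehicle 1. In brown fat the log2 fold change was -1.10 ± 0.70 (SE), adjusted p = 0.977 in edgeR, and -0.05 without vehicle 1. Zfp36l1 behaved otherwise: in brown fat it was at 32, 63.9 and 45 CPM in vehicle libraries 1 to 3 and 39.7, 26.4 and 21.7 CPM in quercetin libraries 1 to 3, with quercetin 3 lowest and vehicle 2 highest. Its log2 fold change was -0.69 ± 0.34 (SE), adjusted p = 0.977 in edgeR, and -0.39 without vehicle 2.

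Of the members grouped as feedback, DUSP1, DUSP5 and DUSP6 remove phosphate from MAP kinases and SOCS3 blocks cytokine receptors. IER3 and RHOB, a small GTPase, were placed in the same group. Dusp1 was in muscle at 798, 239 and 142 CPM in vehicle libraries 1 to 3 and 545, 169 and 219 CPM in quercetin libraries 1 to 3 and in white fat at 664, 41.6 and 104 CPM in vehicle libraries 1 to 3 and 158, 100.3 and 66.6 CPM in quercetin libraries 1 to 3. The libraries numbered 1 of both arms were the highest in each of these tissues. Dusp6, a phosphatase of ERK, differed from this pattern in muscle, at 12.3, 32 and 33.9 CPM in vehicle libraries 1 to 3 and 28.1, 26.4 and 29.4 CPM in quercetin libraries 1 to 3. Vehicle 1, the highest library for 17 members, was its lowest. In brown fat Dusp6 was at 58, 122 and 71.9 CPM in vehicle libraries 1 to 3 and 51.8, 67.1 and 40.6 CPM in quercetin libraries 1 to 3, with a log2 fold change of -0.66 ± 0.35 (SE), adjusted p = 0.977 in edgeR, and -0.27 without vehicle 2.

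Socs3 was in muscle at 68.5, 61.5 and 78.6 CPM in vehicle libraries 1 to 3 and 509, 47.5 and 23.4 CPM in quercetin libraries 1 to 3. Quercetin 1 alone was high, and the list of 17 inflammatory cytokines summed to 132.1 CPM there against 35.2 to 65.1 in the other muscle libraries. In white fat Socs3 was at 236.5, 110.1 and 232.1 CPM in vehicle libraries 1 to 3. White fat quercetin libraries 1 to 3 had 191.2, 100.1 and 136.1 CPM. The highest of these, vehicle 1, had the lowest cytokine sum in white fat, at 134.2 CPM against 252.5 to 551.4 in the others. In brown fat Socs3 was at 75.3, 83.9 and 70.9 CPM in vehicle libraries 1 to 3 and 23.1, 9.21 and 188 CPM in quercetin libraries 1 to 3, with quercetin 3 highest, where the same list summed to 983.1 CPM against 33.9 to 94.7; the part of inflammatory signals was not tested. Dusp5 ranged over 1.39 to 10.3 CPM in muscle, 5.03 to 29 CPM in white fat and 0.708 to 9.72 CPM in brown fat. Ier3 ranged over 9.93 to 41.6 CPM, 7.75 to 50.1 CPM and 10.1 to 79.4 CPM, and Rhob over 269 to 469 CPM, 81.8 to 591 CPM and 224 to 665 CPM, in the same order of tissues.

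By role, the AP-1 members had lower estimates with quercetin in 6 of 9 cases in muscle, 9 of 9 in white fat and 6 of 9 in brown fat, and without vehicle 1 in 4, 3 and 5 of 9. The 3 EGR members had a median log2 fold change of 1.35 in muscle and 0.04 in white fat, and of 1.89 and 0.47 without vehicle 1. Without both libraries numbered 1 these medians were 0.02 and -1.92. All 3 NR4A members had lower estimates in white fat (median -1.45) and in brown fat (-0.25), and 1 of 3 did in muscle. Without vehicle 1 the white fat median turned to 0.79, with 1 of 3 lower, the brown fat median was -0.24 with 2 of 3 lower, and 0 of 3 were lower in muscle. The 3 decay factors all had lower estimates in white fat and in brown fat, with medians of -1.55 and -0.69. Without vehicle 1 these medians were -0.37 and -0.05, with 3 of 3 and 2 of 3 lower. Of the 6 feedback members, 3 had a lower estimate in muscle, 6 in white fat and 3 in brown fat, and without vehicle 1 these were 1, 3 and 2. With both libraries numbered 1 left out, lower estimates numbered 9, 6 and 4 of 9 AP-1 members in muscle, white fat and brown fat. For NR4A they then numbered 3, 2 and 3 of 3 in the same order of tissues, and for the feedback members 4, 3 and 1 of 6. The decay factors then had 3 of 3 lower in white fat and 2 of 3 in brown fat. None of these members was called.

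Tissues were then compared over both arms in a fit of all 18 libraries, which treats libraries of the same label as independent. White fat and muscle differed in 10 of 33 members. In white fat 5 were higher (28.6% of 16388 genes were) and 5 lower (21.7%). The higher ones included Nfkbiz, with a log2 fold change of 1.88 ± 0.39 (SE), adjusted p = 0.00115 in edgeR. Zfp36l1 had 1.34 ± 0.28 (SE), adjusted p = 0.00139 in edgeR. Dusp6 had 1.24 ± 0.31 (SE), adjusted p = 0.0042 in edgeR, and Dusp5 had 1.76 ± 0.62 (SE), adjusted p = 0.0279 in edgeR. Among the lower ones, Nr4a3 had -2.83 ± 0.59 (SE), adjusted p = 0.00121 in edgeR. Atf3 had -3.34 ± 0.80 (SE), adjusted p = 0.003 in edgeR. Jun had -1.54 ± 0.52 (SE), adjusted p = 0.0227 in edgeR, and Fos had -3.18 ± 1.15 (SE), adjusted p = 0.0313 in edgeR. The others called were Ier2, higher at 1.34 ± 0.53 (SE), adjusted p = 0.0450 in edgeR, and Klf10, lower at -0.88 ± 0.32 (SE), adjusted p = 0.0315 in edgeR; both fall outside the rule for named genes and were added after their values were seen.

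In the fits over all tissues, leaving out a library number of 1 arm took it out of every tissue. The calls of Fos, Jun, Dusp5, Ier2 and Klf10 were lost in at least 1 of the 11 alternatives. For Fos the estimate was -1.91 without quercetin 1, with an adjusted p of up to 0.197 in edgeR over its alternatives; for Jun and Dusp5 the adjusted p reached 0.0817 and 0.0966. Nfkbiz, Zfp36l1, Dusp6, Nr4a3 and Atf3 were called in all 11 alternatives. The count of called members was 5 without vehicle 2, where 6386 of 16832 genes were called. It was 6 without quercetin 1, where 6235 of 16776 genes were called. The main fit called 8251 of 16388 genes.

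Brown fat and muscle differed in 2 of 33 members. Dusp6 was higher in brown fat, at 1.31 ± 0.31 (SE), adjusted p = 0.00606 in edgeR (13.9% of all genes were higher). Nr4a3 was lower, at -1.93 ± 0.57 (SE), adjusted p = 0.0203 in edgeR (13.3% were lower). Without quercetin 1 of every tissue the call of Nr4a3 was lost, and its adjusted p reached 0.0595 in edgeR over its alternatives. The other members named by the rule did not pass: Nfkbiz had 0.85 ± 0.38 (SE), adjusted p = 0.115 in edgeR, Fos -2.60 ± 1.12 (SE), adjusted p = 0.101 in edgeR, Ier5 -0.97 ± 0.43 (SE), adjusted p = 0.108 in edgeR, and Btg2 -1.52 ± 0.74 (SE), adjusted p = 0.144 in edgeR. Nor did Ier3, at 0.71 ± 0.52 (SE), adjusted p = 0.352 in edgeR, or Jund, at 0.55 ± 0.45 (SE), adjusted p = 0.405 in edgeR. Without quercetin 3 of every tissue, which in brown fat was the library with muscle transcripts, 4 members and 3575 of 16820 genes were called. The main fit called 4461 of 16388 genes.

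Brown fat and white fat differed in 6 of 33 members, 1 higher in brown fat (18.3% of all genes) and 5 lower (22.0%). Atf3 was higher, at 1.96 ± 0.76 (SE), adjusted p = 0.0495 in edgeR. Zfp36l1 was lower, at -1.38 ± 0.28 (SE), adjusted p = 0.0018 in edgeR. Ier5 was lower, at -1.86 ± 0.44 (SE), adjusted p = 0.00412 in edgeR. Egr2 was lower, at -2.75 ± 0.82 (SE), adjusted p = 0.0151 in edgeR, and Dusp5 at -2.04 ± 0.63 (SE), adjusted p = 0.0178 in edgeR. Nfkbiz was also called, at -1.03 ± 0.38 (SE), adjusted p = 0.0408 in edgeR, and was added after its value was seen. The 4 white fat libraries with B cell markers at 661.0 to 3413 CPM had 95.97 to 257.2 CPM of Ier5 and 11.3 to 29.0 CPM of Dusp5. The 2 libraries without them, vehicle 1 and quercetin 2, had 170.5 and 63.5 CPM of Ier5 and 17.99 and 5.03 CPM of Dusp5. The 8 B cell markers summed to at most 5.43 CPM in any muscle or brown fat library. The part of lymphocytes in these differences was not tested, and in whole tissue fewer cells of a type and less RNA per cell cannot be told apart. Of these calls, Zfp36l1 was made in all 11 alternatives, Ier5 in 10, Egr2 and Dusp5 in 8 each and Atf3 in 5. Without quercetin 1 of every tissue, 1 member (Zfp36l1) and 3828 of 16776 genes were called, so the call of Nfkbiz was lost there. Without vehicle 1 of every tissue, 12 members and 8260 of 16766 genes were called. The main fit called 6604 of 16388 genes.

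**Figure D4:**
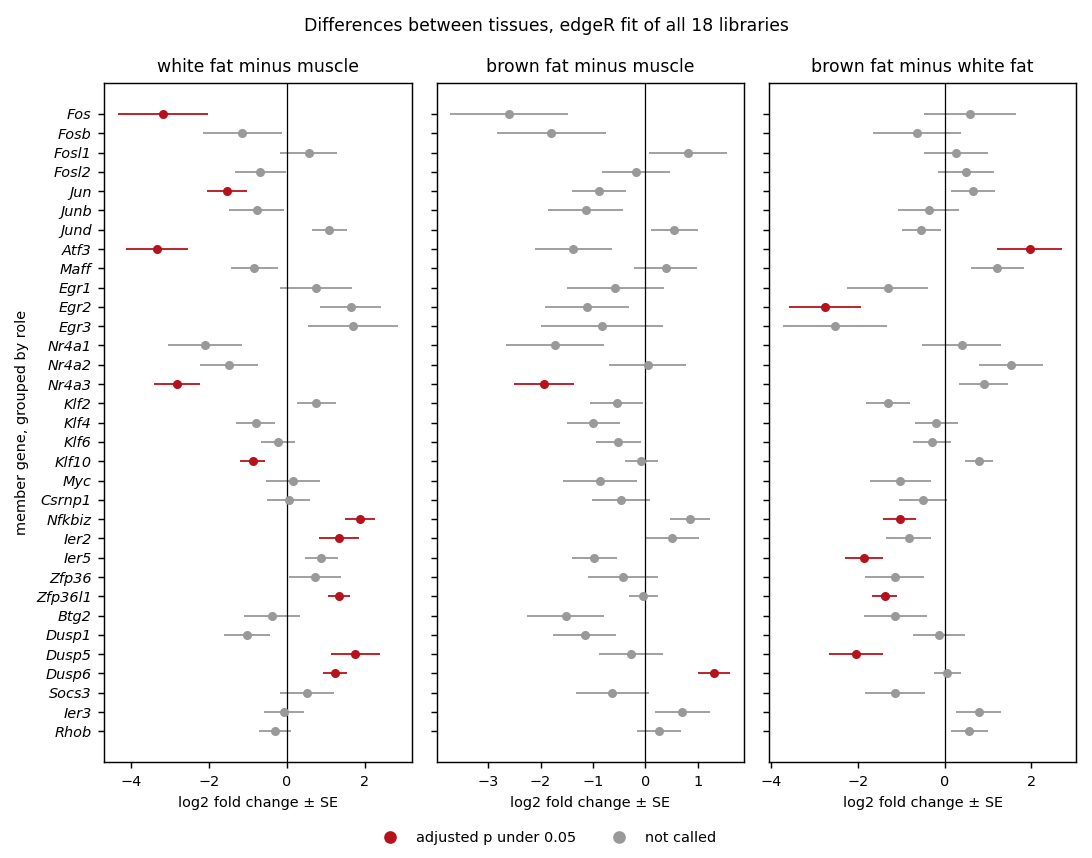
Points are log2 fold changes between tissues for each of the 33 members in the edgeR fit of all 18 libraries, with bars of 1 SE; red marks an adjusted p under 0.05. There are 10, 2 and 6 red points from left to right; Nr4a3 lies below 0 in both comparisons with muscle and Dusp6 above 0 in both.

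Levels of different genes were set side by side only per kilobase of exon (GENCODE mouse release 21). Rhob was the most abundant member in muscle, at 143 ± 30.4 CPM per kb (SD, n = 6), followed by Junb at 139.9 ± 157.5, Nr4a1 at 116 ± 83.1 and Dusp1 at 106 ± 79.3. In white fat Klf2 led at 120.5 ± 68.3 CPM per kb, followed by Rhob at 116 ± 77.6 and Junb at 82.7 ± 46.1. In brown fat Rhob led at 175 ± 81.0 CPM per kb, followed by Junb at 63.6 ± 32.7 and Jun at 54.3 ± 28.1. Neighbours in each of these orders differed by less than their SD, except Rhob and Junb in brown fat. Low members in all 3 tissues included Egr2, Egr3, Dusp5 and Fosb, with means of 0.613 to 6.64 CPM per kb.

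The members mostly moved together from library to library. With log2(CPM + 0.5) centred within each tissue, 20 of 33 had a Pearson's r of at least 0.70 with the mean of the other 32 over the 18 libraries, and the median r was 0.72. Among 9750 other genes with a mean of at least 10 CPM, 0.810% reached 0.70 and the median was -0.01. Zfp36 was the closest to the rest (r = 0.90), then Ier2 (0.90), Fosb (0.90) and Btg2 (0.90). Another 7 members were under 0.50: Dusp6 (0.10), Zfp36l1 (0.19), Rhob (0.28), Klf2 (0.31), Klf10 (0.41), Egr2 (0.42) and Nr4a3 (0.48). These correlations are descriptions, since the points share library, depth and tissue makeup.

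Without the 6 libraries numbered 1 the correlations spread wider. The values were not centred again, so the libraries left out still set the offset of each tissue in these correlations. Socs3 had an r of 0.88, Junb 0.86, Klf6 0.85 and Ier5 0.84 with the mean of the others over the remaining 12 libraries. The 7 lowest were Nr4a3 at -0.12, Klf4 at -0.11, Nr4a2 at -0.06, Rhob at 0.04, Dusp6 at 0.06, Zfp36l1 at 0.11 and Nr4a1 at 0.12. Rhob, Dusp6 and Zfp36l1 were also low over all 18 libraries, whereas Nr4a1 had been at 0.77 and Nr4a2 at 0.70.

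**Figure D5:**
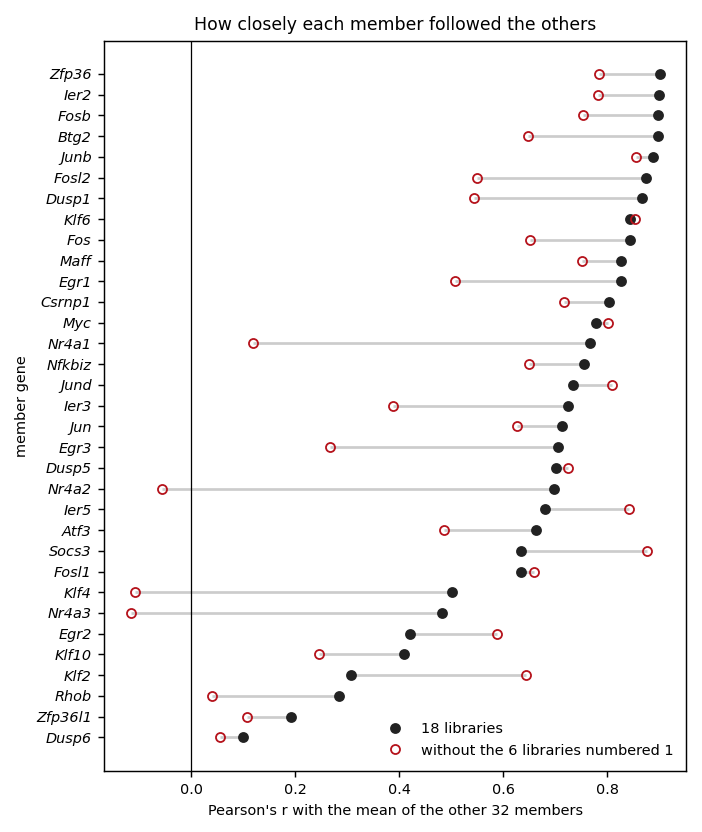
Pearson's r of each member with the mean of the other 32 members, from log2(CPM + 0.5) centred within each tissue, over all 18 libraries (filled points) and without the 6 libraries numbered 1 (open points). Both use values centred over all libraries of a tissue. The filled points run from 0.10 for Dusp6 to 0.90 for Zfp36, and the open points of Nr4a1, Nr4a2, Nr4a3 and Klf4 lie far to the left of their filled ones.

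Among the 10 other genes whose pattern was most like the mean of the members, by the same r over 18 libraries, were Ccn1 (0.90), Sik1 (0.90), Rnd1 (0.89), Thbs1 (0.89), Plaur (0.87), Cnn3 (0.85), Chic2 (0.85), Dlgap4 (0.85) and Sema4c (0.83). Ccn1, Sik1 and Thbs1 belong to a list of 48 other genes known to be induced early. Ccn1, which encodes a secreted matrix protein, was in white fat at 219.9, 8.93 and 21.2 CPM in vehicle libraries 1 to 3 and 79.6, 21.7 and 10.1 CPM in quercetin libraries 1 to 3. Vehicle 1 was the highest.

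Related genes were described from fixed lists, and none of their genes was called in any tissue in the quercetin comparison. The list of other early induced genes shared the pattern of the members: 24 of 44 tested were highest in muscle vehicle 1 and 10 in quercetin 1, and in white fat 26 of 47 and 12 of 47. Lower estimates with quercetin numbered 31 of 44 in muscle (median log2 fold change -0.45), 33 of 47 in white fat (-0.51) and 27 of 44 in brown fat (-0.22). Without vehicle 1 these were 21 of 44 (0.03), 18 of 47 (0.17) and 17 of 44 (0.09). Ppp1r15a, which encodes the GADD34 subunit that restores translation, reached 617.9 CPM in muscle vehicle 1, above a range of 36.9 to 90.8 in the rest of the muscle libraries.

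Upstream regulators of the members, 28 genes for the serum response factor, CREB, NF-κB and MAP kinase routes, had medians of -0.01, -0.09 and -0.06 in muscle, white fat and brown fat. Lower estimates numbered 14, 19 and 17 of 28. Elk4, a partner of serum response factor, reached 449.9 CPM in muscle vehicle 1, above a range of 21.4 to 44.8 in the rest, with a log2 fold change of -2.63 ± 0.92 (SE), adjusted p = 0.910 in edgeR.

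Genes of the glucocorticoid and fasting response were high in vehicle 1 of muscle and white fat and not in quercetin 1. In muscle their 20 genes summed to 34120 CPM in vehicle 1 and 5436 CPM in quercetin 1, with 4673 to 8790 CPM over the 5 libraries other than vehicle 1. In white fat they summed to 8423 CPM in vehicle 1 and 1359 CPM in quercetin 1. Vehicle 1 was the highest library for 16 of 20 of these genes in muscle, 13 of 19 in white fat and 10 of 20 in brown fat. Mt1, a metallothionein, was at 4743 CPM in muscle vehicle 1 and 197.0 to 1868 in the others, and Pdk4, a fasting-induced kinase of pyruvate dehydrogenase, at 1315 CPM in white fat vehicle 1 and 27.5 to 107.0 in the others. The part of this response in the levels of the members was not tested.

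Heat shock and stress genes took another course. They were highest in vehicle 2 for 11 of 19 in muscle, 9 of 19 in white fat and 13 of 19 in brown fat, while 1, 2 and 5 of the 33 members were highest there in the same order of tissues. Hspa1b, an inducible HSP70, reached 1692 CPM in brown fat vehicle 2, above a range of 7.22 to 209.7 in the rest. Lower estimates with quercetin numbered 18, 14 and 17 of 19 in muscle, white fat and brown fat, against 53.0%, 51.5% and 45.1% of all genes. This count was not repeated without vehicle 2, so how far that library carries it was not tested. Inflammatory cytokines were high in brown fat quercetin 3, where Cxcl10, an interferon-induced chemokine, was at 413.5 CPM against 0.556 to 5.64 in the other 5. They had a lower estimate in 1 of 6 tested genes in muscle, 9 of 17 in white fat and 3 of 10 in brown fat.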

How the data were processed

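Counts per Ensembl gene were taken as deposited; per the submitters' processing notes, the authors used HISAT2, HTSeq and DESeq2 and build mm10, with no version listed. Neither strandedness nor annotation release is stated for the counting, so reads of a member and of an overlapping or antisense gene may not be told apart. RNA was total RNA, and libraries were made with a NEBNext Ultra kit, per the labels' protocols. Symbols, gene positions and exon lengths came from GENCODE mouse release 21 (GRCm38), and 53360 of 53465 genes had a symbol.

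Each tissue was fitted alone with edgeR 4.0.16 in R 4.3.3: filterByExpr (minimum count 10, minimum total 15), TMM, glmQLFit and a two-sided quasi-likelihood F test, with Benjamini-Hochberg adjustment over all genes tested and a threshold of 0.05. Tissue differences and interactions came from 1 fit of all 18 libraries with 6 groups. Levels are CPM with TMM over all 18 libraries, and log2 deviations add 0.5. Alternatives were DESeq2 1.42.0, RLE size factors, no filter, voom with sample quality weights (limma 3.58.1) and flow cell as a covariate. Others were a replicate block and libraries left out. The block was the replicate number within a tissue and the label in the fit of all 18 libraries. Within a tissue, 1 library was left out at a time. In the fit of all 18 libraries, a library number of 1 arm was left out of every tissue at a time. The code was tested on simulated counts. In edgeR, simulated 4-fold changes between the arms were recovered in 37% of cases in muscle, 1% in white fat and 26% in brown fat. For 16-fold changes these shares were 96%, 19% and 96%, with 4, 1 and 6 false calls. DESeq2 recovered 75%, 31% and 70% of the 4-fold changes, with 56, 103 and 56 false calls.

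The 33 members and the lists of related genes and markers were chosen with earlier results of these data known, so they are no independent support. Fold changes are given for the 6 members with the smallest p per tissue in the quercetin comparison, the 4 smallest in each direction per tissue pair, and up to 3 genes per related list and tissue. The depth was 8436308 to 12311345 counts a library. The files' summary lines, left out of all tests, put 2.53 to 9.11% of reads outside any feature and called 6.47 to 9.84% ambiguous. All 18 pairs of replicates differed by more than sampling noise (lowest chi-square per degree of freedom 29.8), so none was treated as a copy.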

Additional observations from a re-analysis of the deposited data

How the results depend on the processing

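In the quercetin comparisons no alternative called a member in any tissue, and the direction of the members' median turned with single libraries. Of all genes, the most called by an alternative was 32 of 26302, in muscle without the filter on low counts. Over fits that left out 1 library each, muscle had a median log2 fold change between -1.03 and 0.39 with 9 to 30 members lower, white fat between -1.38 and 0.074 with 15 to 31 lower, and brown fat between -0.52 and 0.21 with 14 to 26 lower. White fat libraries of flow cell H7H2WDSXX alone gave 0.155 and 13 lower, and brown fat without both libraries numbered 1 gave 0.167 and 13 lower. Both settings were chosen after the data were seen.

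Single members also turned. In muscle, leaving out 1 library put Fosb between -0.94 and 2.68 and Myc between -2.38 and 0.45, and without both libraries numbered 1 Fosb was at -0.068. In white fat, Jun lay between -1.78 and 0.10 over such fits and at 0.078 without both, and Zfp36 at 0.02 within flow cell H7H2WDSXX. In brown fat, voom with sample quality weights gave -0.29 for Fosl1 and 0.22 for Atf3, and Fosl1 lay between -0.72 and 2.24 with 1 library left out. The cause was not tested.

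Between tissues, each leave-out fit dropped 1 library number of 1 arm in every tissue. These fits called 5 to 12 members for white fat minus muscle and 2 to 4 for brown fat minus muscle. For brown fat minus white fat they called 1 to 12, and the median ran from -0.85 to 0.09. All genes called ranged over 6235 to 8888, 2468 to 4979 and 3828 to 8260 in the same order. Replicate numbers were not taken as pairs in the main fits. Same-numbered vehicle and quercetin libraries had correlations of -0.73 to 0.33, with 2 of 9 over 0.1. Libraries of the same label in 2 tissues had correlations of 0.05 to 0.33 in the vehicle arm, with 8 of 9 over 0.1 and 8 of 9 best matched to their own label, and of -0.19 to 0.20 in the quercetin arm, with 3 of 9 over 0.1 and 5 of 9 best matched. With the label as a block, 15, 5 and 12 members were called in those 3 tissue comparisons. Of all 16388 genes, 8071, 4370 and 6319 were called there. A separate block by replicate number within each tissue, which does pair the numbers, gave quercetin medians of -0.32, -0.65 and -0.45 with 0 called. With 3 libraries a group, a difference that is small against a spread of several fold between replicates could not be detected. In white fat edgeR recovered only 19% of simulated 16-fold changes, so large differences could be missed there too.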
